A study of Homo sapiens with 8 samples.

Results

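NR2F2 and RUNX2 are transcription factors of mesenchymal cells, and the 31395 peaks counted in N4-acetylcytidine (ac4C) immunoprecipitates of 2 human osteosarcoma cell lines included 4 that overlap them. The 4 were found by overlap with the GRCh38 spans of the genes, and each gene held 2. Both genes were chosen with the difference between NAT10 knockout and control libraries already known, so that difference is described here and not tested. NR2F2 (Gene ID 7026) spans chr15:96326046-96340263 and RUNX2 (Gene ID 860) spans chr6:45328330-45551082.

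The cells were 143B and HOS, established osteosarcoma lines of which 143B was derived from HOS. The groups with counts were 143B labelled sgNAT10, 143B NC, HOS labelled sgNAT10 and HOS NC, where sgNAT10 is the NAT10 knockout and NC the control, with 1 library each and so no replicates. The labels give no age of culture or treatment, and do not say whether a knockout was 1 clone or a pool. Poly(A) RNA was fragmented and what an antibody against ac4C pulled down was sequenced. Input libraries were not used here, so a count mixes the amount of RNA with its enrichment by the antibody.

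NR2F2, also called COUP-TFII, is an orphan nuclear receptor that binds DNA through zinc fingers and represses or activates genes in mesenchyme, veins and many developing organs. RUNX2 carries the Runt DNA-binding domain, works with its partner CBFB, and is required for osteoblasts to form. In mouse cells NR2F2 has been reported to bind Runx2 and to lower its activity in osteoblast differentiation. NAT10 is the acetyltransferase that writes ac4C into RNA.

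The starts of transcripts that RefSeq lists for the genes place the peaks. RUNX2 has a distal and a proximal start, which give protein forms with different first residues, and both windows are shown because both peaks lie after them. The window of the first NR2F2 start listed is shown because it is the listed one nearest to the NR2F2 peaks, which lie before it. The NR2F2 span begins 5201 bp before peak 1, and none of the starts listed here lies at that beginning. Lying before the start shown therefore does not place the peaks before NR2F2 transcription. Each window runs from 250 bases before to 50 bases after the start, on the plus strand of GRCh38.p14, with capitals for the 6-letter RUNX motif (ACCACA or TGTGGT) and for the nuclear receptor half-site (AGGTCA or TGACCT).
RUNX2 distal start, chr6:45328080-45328379: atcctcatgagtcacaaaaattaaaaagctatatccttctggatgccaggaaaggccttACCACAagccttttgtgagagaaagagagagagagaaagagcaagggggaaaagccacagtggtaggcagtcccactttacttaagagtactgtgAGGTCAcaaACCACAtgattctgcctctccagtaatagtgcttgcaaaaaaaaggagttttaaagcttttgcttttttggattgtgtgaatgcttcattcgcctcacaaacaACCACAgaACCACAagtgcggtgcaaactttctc
RUNX2 proximal start, chr6:45422025-45422324: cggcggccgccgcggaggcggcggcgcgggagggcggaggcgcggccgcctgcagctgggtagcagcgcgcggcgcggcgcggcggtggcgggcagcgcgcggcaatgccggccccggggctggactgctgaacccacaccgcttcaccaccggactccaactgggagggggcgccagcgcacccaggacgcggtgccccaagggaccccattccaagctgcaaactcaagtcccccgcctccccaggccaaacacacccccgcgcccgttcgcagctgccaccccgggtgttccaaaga
NR2F2 start, chr15:96332315-96332614: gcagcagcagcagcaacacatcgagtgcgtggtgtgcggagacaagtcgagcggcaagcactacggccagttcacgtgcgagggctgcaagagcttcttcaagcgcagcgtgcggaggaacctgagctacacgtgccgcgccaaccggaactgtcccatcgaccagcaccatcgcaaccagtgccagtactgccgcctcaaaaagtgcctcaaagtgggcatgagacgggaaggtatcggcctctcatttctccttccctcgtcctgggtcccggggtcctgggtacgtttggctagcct

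The distal RUNX2 window held 4 RUNX motifs and 1 nuclear receptor half-site, none of them overlapping another. The half-site began 96 bases before the start, and the RUNX motif nearest to it 87 bases before the start. The proximal RUNX2 window and the NR2F2 window shown held neither. The windows listed for NR2F2 include none at the beginning of its span, so that stretch was not searched. Among 35116 promoter windows of this length, 13.1% held the RUNX motif, 13.8% the half-site and 2.24% both. A match is a string of letters and not a measured binding site.

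Peak 1 of RUNX2 (chr6:45458842-45459032, 190 bp wide) lay 36567 bp after the proximal start and 130512 bp after the distal one. Peak 2 (chr6:45546976-45547410, 434 bp wide) lay 3672 bp from the far end of the span. Transcripts from either start can run through both peaks, so the counts do not tell the 2 starts apart. Peak 1 of NR2F2 (chr15:96331247-96331468, 221 bp) and peak 2 (chr15:96331644-96331758, 114 bp) were 176 bp apart, at 5201 and 5598 bp into a span of 14218 bp, and 1318 and 921 bp before the listed start shown. None of the 4 peaks overlapped a second annotated gene, and all 4 passed the filter on low counts. The tables do not say whether positions count from 0, and positions are given unaltered. The annotation used here holds no exons, so no peak was placed in an exon or a UTR.

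Several facts of the libraries touch every value below. Totals over all peaks were 20107718 to 24785306 counts, with TMM scaling factors of 0.729 to 1.26. Library totals in place of TMM would add 0.35 to every log2 shift in 143B and 0.59 to every one in HOS, and the sign of the sgNAT10 over NC shift of each of the 4 peaks was kept under that and the other scalings run. One library was unlike the rest: 143B labelled sgNAT10 had Spearman correlations across peaks of 0.583 to 0.718 with the others, against 0.803 to 0.865 among those. The single NAT10 peak had 130 counts in 143B labelled sgNAT10 and 65 in 143B NC, against the direction of its label, and 63 in HOS labelled sgNAT10 and 180 in HOS NC. That peak ended 101 bp before the far end of the NAT10 span, and the site cut by the guide is not given in the sources used here, so its counts do not check the edit itself. Of 12 osteoblast and mesenchymal markers 5 had a peak assigned to them, among them VIM, SPARC and COL5A1, while COL1A1 and FN1 had none assigned. Of 6 epithelial markers 3 had a peak, with summed levels of 89.4 CPM in 143B labelled sgNAT10 and 64.2 in 143B NC, and 108 in HOS labelled sgNAT10 and 121 in HOS NC. One of them, the adhesion gene CDH1, had 7 counts in 143B labelled sgNAT10 and 30 in 143B NC, and 812 in HOS labelled sgNAT10 and 5 in HOS NC. For CDH1 those are the directions of the RUNX2 differences described below, and its part in them was not tested. The other epithelial markers with a peak went otherwise in HOS. KRT8 had log2 shifts, sgNAT10 over NC, of -0.05 in 143B and -0.90 in HOS, and KRT18 0.64 and -0.66. Of the blood markers only PTPRC had a peak, with 22 counts at most in a library. The assigned peaks therefore cover part of what these cells are known to express.

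NR2F2 was lower in both libraries labelled sgNAT10, over both of its peaks. Peak 1 had 46 counts in 143B labelled sgNAT10 and 214 in 143B NC, and 82 in HOS labelled sgNAT10 and 235 in HOS NC. Peak 2 had 42 counts in 143B labelled sgNAT10 and 144 in 143B NC, and 57 in HOS labelled sgNAT10 and 119 in HOS NC. Both NC libraries were above both libraries labelled sgNAT10 in each peak. Scaled to normalised counts (CPM, counts scaled to the size of the library with TMM factors), peak 1 stood at 1.64 (95% exact Poisson interval 1.20 to 2.18) in 143B labelled sgNAT10 and 10.8 (9.36 to 12.3) in 143B NC. The same peak stood at 3.56 CPM (2.83 to 4.42) in HOS labelled sgNAT10 and 13.0 (11.4 to 14.8) in HOS NC. These intervals and those that follow cover counting error only, since 1 library per group shows no spread between cultures, and without molecular identifiers several reads can come from 1 molecule.

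The size of the NR2F2 difference was close between its peaks within a line. Shifts are log2 CPM in sgNAT10 minus log2 CPM in NC, with a prior count of 1, and the interval comes from exact conditional binomial bounds. For peak 1 it was -2.68 (-3.21 to -2.25) in 143B and -1.86 (-2.25 to -1.50) in HOS, which is 6.57-fold and 3.66-fold lower. For peak 2 it was -2.24 (-2.81 to -1.77) in 143B and -1.40 (-1.90 to -0.95) in HOS, or 4.84-fold and 2.66-fold lower. In each line the intervals of the peaks overlapped, which by itself does not show that the shifts were equal. The summed peaks gave 3.13 CPM (2.51 to 3.86) in 143B labelled sgNAT10 and 6.03 (5.07 to 7.12) in HOS labelled sgNAT10, against 18.0 (16.2 to 19.95) in 143B NC and 19.6 (17.6 to 21.8) in HOS NC. In this order of levels only the NC neighbours had overlapping intervals.

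RUNX2 was lower in 143B labelled sgNAT10 than in 143B NC, and in HOS its second peak was higher in the library labelled sgNAT10. Peak 1 had 46 counts in 143B labelled sgNAT10 and 84 in 143B NC, and 85 in HOS labelled sgNAT10 and 53 in HOS NC. Peak 2 had 22 counts in 143B labelled sgNAT10 and 87 in 143B NC, and 208 in HOS labelled sgNAT10 and 80 in HOS NC. For peak 2 the libraries labelled sgNAT10 were thus the lowest and the highest of the 4, with both NC libraries between them.

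The estimated RUNX2 difference was larger at the peak near the far end of the gene, in opposite directions in the lines. In both lines, however, the intervals of the peaks overlapped. Overlap of separate intervals does not show that the shifts were alike, and the difference between the peaks was not tested. Peak 1 had shifts of -1.34 (-1.92 to -0.83) in 143B and 0.33 (-0.18 to 0.85) in HOS, where counting error alone leaves its direction unsettled. Peak 2 had shifts of -2.42 (-3.23 to -1.79) in 143B and 1.02 (0.65 to 1.42) in HOS, that is 5.58-fold lower and 2.04-fold higher. In CPM peak 2 stood at 0.783 (0.491 to 1.19) in 143B labelled sgNAT10 and 4.37 (3.50 to 5.39) in 143B NC, and at 9.03 (7.84 to 10.3) in HOS labelled sgNAT10 and 4.43 (3.51 to 5.51) in HOS NC. The summed RUNX2 peaks held 2.42 CPM (1.88 to 3.07) in 143B labelled sgNAT10 and 8.59 (7.35 to 9.98) in 143B NC, and 12.7 (11.3 to 14.3) in HOS labelled sgNAT10 and 7.37 (6.17 to 8.73) in HOS NC. Their shifts were -1.81 (-2.26 to -1.41) and 0.78 (0.49 to 1.09). Ordered by level, the summed peaks of RUNX2 ran from 143B labelled sgNAT10 through HOS NC and 143B NC to HOS labelled sgNAT10, and only the intervals of HOS NC and 143B NC overlapped.

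**Figure D1:**
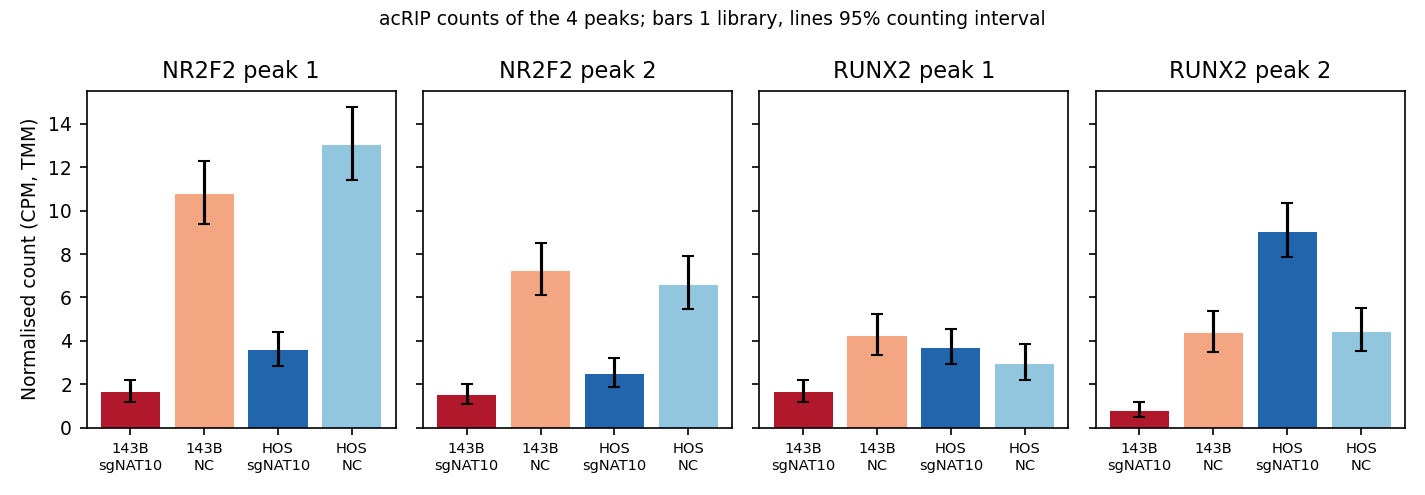
Normalised count (CPM, TMM factors) of each of the 4 peaks in the 4 libraries, 1 bar per library with its 95% exact Poisson interval. NR2F2 peak 1 stands at 1.64 and 3.56 CPM in the libraries labelled sgNAT10 against 10.8 and 13.0 in the NC libraries, and RUNX2 peak 2 ranges from 0.783 CPM in 143B labelled sgNAT10 to 9.03 in HOS labelled sgNAT10.

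**Figure D2:**
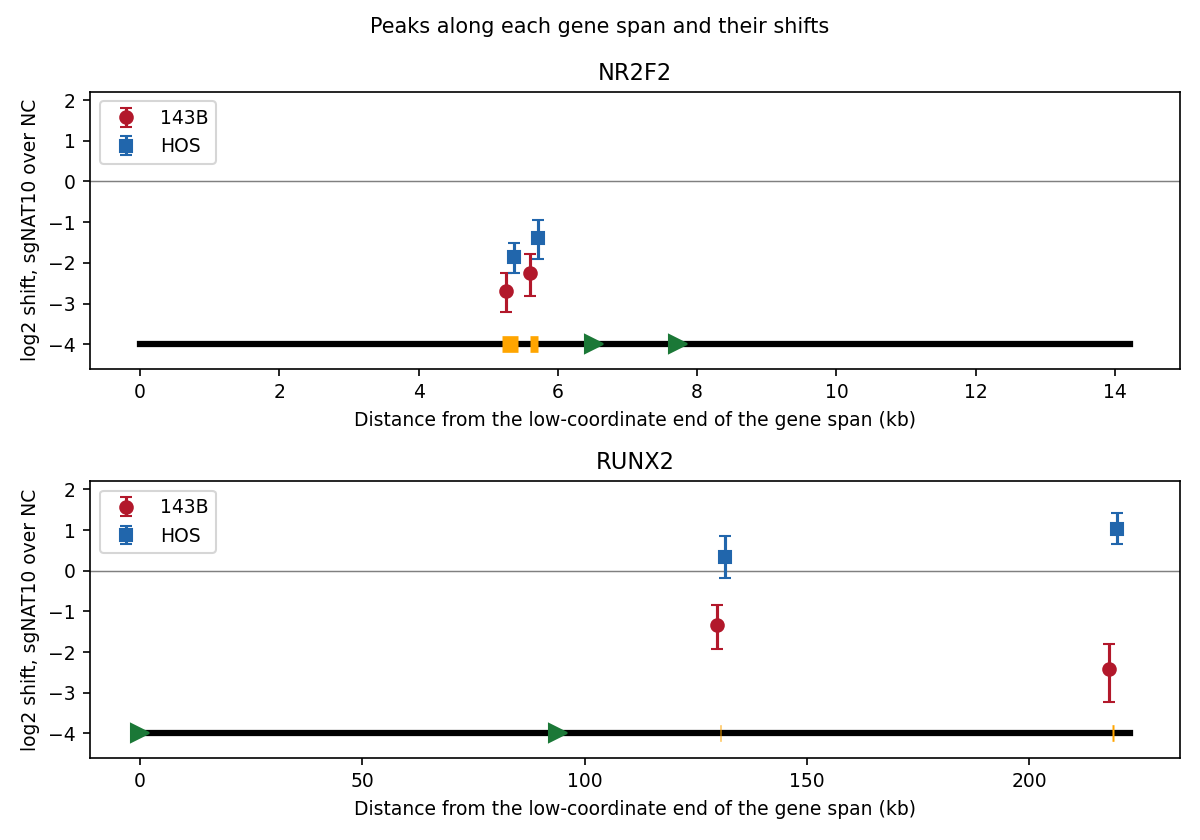
Log2 shift, sgNAT10 over NC, of each peak in 143B (circles) and HOS (squares, drawn slightly to the right) against distance from the low-coordinate end of the gene span in kb, with 95% counting intervals. The black line is the span, orange marks are the peaks and green triangles the listed starts. The NR2F2 peaks lie inside the span but before the starts drawn, and below 0 in both lines. Both RUNX2 peaks lie after the starts drawn, at -1.34 and -2.42 in 143B and at 0.33 and 1.02 in HOS.

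Shares within a library do not depend on scaling between libraries. NR2F2 took 56.4% (95% Wilson interval 48.6 to 63.9) of the counts of both genes in 143B labelled sgNAT10 and 67.7% (63.6 to 71.5) in 143B NC. In HOS it took 32.2% (27.9 to 36.7) in the library labelled sgNAT10 and 72.7% (68.6 to 76.5) in NC. The balance between the genes was thus furthest from the others in HOS labelled sgNAT10, where RUNX2 had 293 counts and NR2F2 139. In 143B the intervals overlapped slightly, which does not show that the shares were alike.

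The split of counts between the peaks of a gene ranged more widely for RUNX2 than for NR2F2. Its second peak took 32.4% (22.4 to 44.2) of RUNX2 counts in 143B labelled sgNAT10 and 50.9% (43.4 to 58.3) in 143B NC, and 71.0% (65.5 to 75.9) in HOS labelled sgNAT10 and 60.2% (51.7 to 68.1) in HOS NC. The intervals overlapped within each line, and those of the libraries labelled sgNAT10 lay apart from each other. The second NR2F2 peak took 47.7% (37.6 to 58.0) of NR2F2 counts in 143B labelled sgNAT10 and 40.2% (35.3 to 45.4) in 143B NC, and 41.0% (33.2 to 49.3) in HOS labelled sgNAT10 and 33.6% (28.9 to 38.7) in HOS NC. Here the intervals overlapped within each line and between the libraries labelled sgNAT10. For either gene, overlap of separate intervals does not show that the shares were alike, and no difference between shares was tested.

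**Figure D3:**
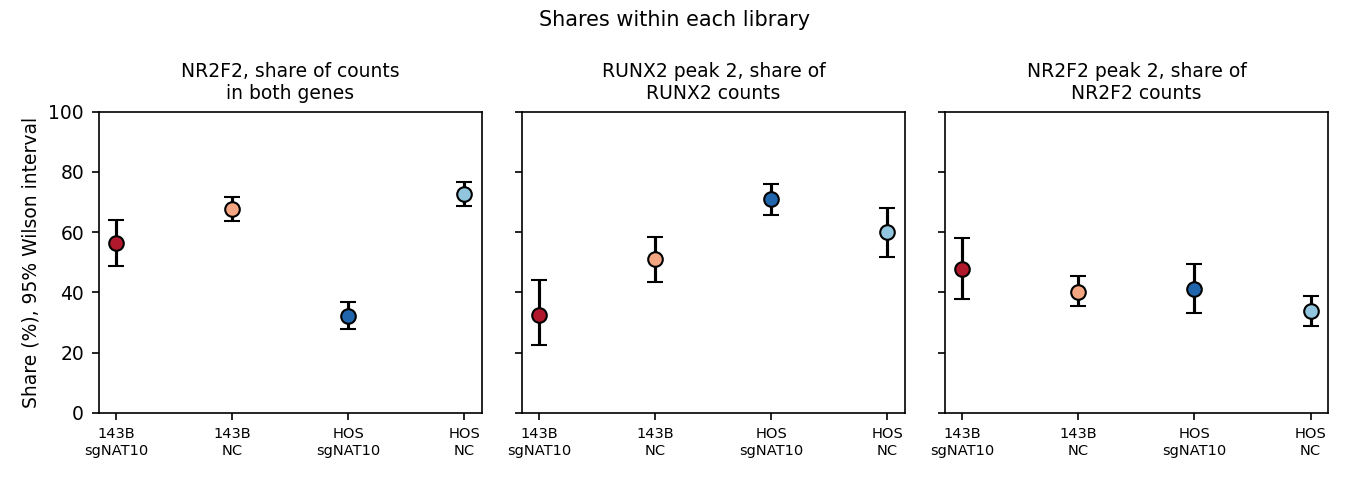
Share in percent, with 95% Wilson intervals, of NR2F2 in the counts of both genes (left), of peak 2 in RUNX2 counts (middle) and of peak 2 in NR2F2 counts (right), 1 point per library. NR2F2 lies at 32.2% of the shared counts in HOS labelled sgNAT10 and at 56.4% to 72.7% in the other libraries, and RUNX2 peak 2 spans 32.4% to 71.0%.

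Per length, NR2F2 was counted more densely than RUNX2 in the control libraries. In 143B NC the NR2F2 peaks held levels of 4.87 and 6.35 CPM per 100 bp, against 2.22 and 1.01 for the RUNX2 peaks. In HOS NC the levels were 5.89 and 5.78 CPM per 100 bp for NR2F2, against 1.54 and 1.02 for RUNX2. In HOS labelled sgNAT10 the 4 levels lay together, at 1.61 and 2.17 for NR2F2 and 1.94 and 2.08 for RUNX2. In 143B labelled sgNAT10 they were 0.741 and 1.31 for NR2F2 and 0.861 and 0.180 for RUNX2.

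The shifts have to be read against those of other peaks, since 143B labelled sgNAT10 was low over many internal peaks. In 143B all 4 peaks were lower by 2-fold or more, as were 21.4% of the 24467 peaks that passed the filter. None of the 4 was higher by as much, against 20.1% of the filtered peaks. Among the 5073 peaks of protein-coding genes that, like these, lay over 500 bp from both ends of the span and had a mean count of 50 or more, 46.5% were lower and 9.92% higher. Those 5073 peaks had a median shift of -0.89 in 143B and -0.02 in HOS. RUNX2 peak 1, at -1.34 in 143B, lay in the middle of them, with 34.7% of them lower. RUNX2 peak 2 and the NR2F2 peaks lay further down, with 9.34%, 5.83% and 12.4% of the 5073 lower than RUNX2 peak 2, NR2F2 peak 1 and NR2F2 peak 2. How far the state of the 143B library takes part in these differences was not tested.

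In HOS the median of such peaks was near 0, and NR2F2 stood low there too. Both NR2F2 peaks and neither RUNX2 peak were lower by 2-fold or more in HOS, as were 8.74% of all peaks that passed the filter and 14.5% of the 5073. With library totals NR2F2 peak 2 stood at -0.82 in HOS, short of 2-fold. Of the 5073, 1.66% had a lower shift than NR2F2 peak 1 and 6.45% a lower one than NR2F2 peak 2. All filtered peaks had a higher median in HOS, at 0.31. RUNX2 peak 1, at 0.33, had 50.7% of the filtered peaks and 63.7% of the 5073 below it. RUNX2 peak 2 was the only one of the 4 that was higher by 2-fold or more in HOS, as were 24.4% of the filtered peaks and 14.9% of the 5073, and 85.6% of the 5073 had a lower shift. Its shift of 1.02 lay just past 2-fold and fell short of it with DESeq2-type size factors (0.87), upper quartile factors (0.93), TMM without the peaks of a block of rRNA genes (0.74) and a prior count of 5 (0.99). Lower in both lines by 2-fold or more, as the NR2F2 peaks were with TMM scaling, applied to 1.57% of the filtered peaks and 4.59% of the 5073. Lower in 143B and higher in HOS by 2-fold or more, as RUNX2 peak 2 was with TMM scaling but not under those 4 settings, was more common, at 6.2% and 10.7%. All these shares describe the contrast the genes were chosen on and lend the choice no support.

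**Figure D4:**
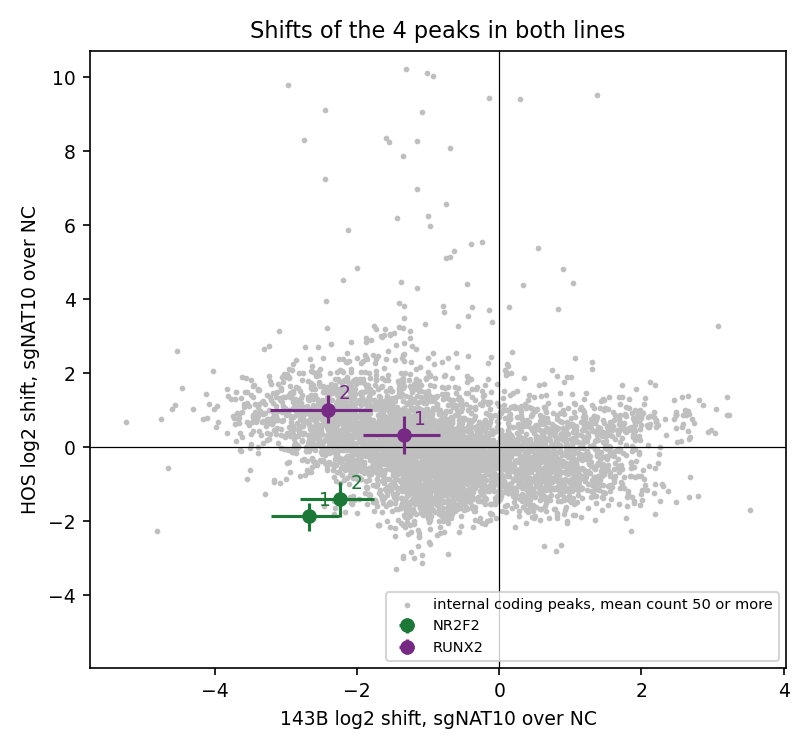
Log2 shift, sgNAT10 over NC, in 143B (horizontal) and HOS (vertical) of the 5073 internal peaks of protein-coding genes (grey) and of the peaks of NR2F2 (green) and RUNX2 (purple), numbered along each gene, with 95% counting intervals. The NR2F2 peaks lie in the lower left, at -2.68 and -1.86 and at -2.24 and -1.40, and the RUNX2 peaks above the horizontal line, on the left.

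Between the lines, the control libraries were close for both genes with TMM scaling. The summed NR2F2 peaks differed by -0.12 (-0.34 to 0.09) on the log2 scale, 143B NC minus HOS NC, and those of RUNX2 by 0.22 (-0.11 to 0.56). RUNX2 peak 1 had the largest difference of the 4 between the NC libraries, at 0.52 (0.01 to 1.05). The libraries labelled sgNAT10 lay further apart, by -0.94 (-1.35 to -0.55) for NR2F2 and -2.37 (-2.80 to -2.01) for RUNX2, 143B minus HOS. Other scalings add -0.10 to 0.44 to the difference between NC libraries, so the sign for NR2F2 turns with library totals and with upper quartile factors, and -0.18 to 0.55 to that between the libraries labelled sgNAT10, where both signs stay.

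Cell line was the one term of the design that the choice of the genes did not use as such. It was tested over all 24467 filtered peaks with genotype as a block. The test draws on the same counts as the contrast behind the choice, so it is not independent of that choice. With edgeR's quasi-likelihood test, 0% of peaks were called higher and 0% lower in 143B at a Benjamini-Hochberg adjusted p of 0.05, while 2183 had an unadjusted p under 0.05. On the same peaks DESeq2 called 15 and limma-trend 0. None of the 4 peaks was among the calls of any of the 3 tools. For RUNX2 peak 2 edgeR gave a log2 fold change, 143B over HOS, of -1.74 (SE 1.12, adjusted p = 0.629), lower in 143B in the libraries labelled sgNAT10 and nearly equal in NC. For NR2F2 peak 1 edgeR gave -0.69 (SE 0.87, adjusted p = 0.813), and for the other two peaks -0.29 and -0.32, with adjusted p = 0.948 for NR2F2 peak 2 and 0.937 for RUNX2 peak 1. With library totals the value for NR2F2 peak 2 turned to 0.04 and that for RUNX2 peak 1 came to 0.0016. With 1 residual degree of freedom the test had little to estimate the spread from, and a p above the threshold does not show that the lines were alike.

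Partners, relatives and targets of the genes are described by sums over their peaks, for genes whose count averaged at least 20 over the libraries. Over all 6862 such genes, 19.1% were lower and 19.5% higher by 2-fold or more in 143B, and 13.4% lower and 14.5% higher in HOS, with median shifts of 0.12 and -0.03. Well-counted internal peaks of protein-coding genes, counted by peak and not by gene, were lower more often in 143B. Of those 5073 peaks 46.5% were lower there, with a median of -0.89. They differ from the gene sums in unit and in minimum count, and no share was taken over gene sums of like depth. Whether low list counts in 143B are particular to the lists was not tested. Lower in both lines by 2-fold or more were 1.69% of the 6862. Lower in 143B and higher in HOS were 4.34%, and among the listed genes 1 RUNX partner and 2 nuclear receptors. With TMM scaling, in none of the 5 lists that follow was any member lower to that extent in both lines, as NR2F2 was. The RUNX partner gene SMAD5, named here after its values were seen, fell just short, at -0.99 in 143B and -0.97 in HOS. The lists had 6 to 13 measured genes each, too few against a share of 1.69% to set NR2F2 apart from them.

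Of 17 RUNX relatives and partners, 11 could be measured. In 143B 6 of them were lower by 2-fold or more and 0 higher, with a median of -1.05, and in HOS 1 was lower and 1 higher, with a median of -0.14. RUNX3, the relative known from T cells and neurons, had shifts of -2.32 in 143B and -0.13 in HOS. The ubiquitin ligase gene SMURF1, whose product is known to promote degradation of RUNX2, had -2.06 and 0.04, and the deacetylase gene HDAC4, a known RUNX2 repressor, -1.08 and 0.67. WWTR1, the gene of the coactivator TAZ, had -0.36 and 0.50. CBFB, the DNA-binding partner, had no peak assigned to it.

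Of 20 other genes listed as regulators of bone, 9 could be measured. They are transcription factor genes except ZFP36L1. In 143B 5 were lower and 2 higher by 2-fold or more, with a median of -1.01. In HOS 2 were lower and 0 higher, with a median of -0.31. TWIST2, a repressor of osteoblast differentiation, had shifts of -3.09 in 143B and 0.26 in HOS over 19 peaks. ATF4, which acts with RUNX2 in osteoblasts, had -1.18 and -0.68 in the same order. The AP-1 gene FOSL1 had -0.24 and -0.31, and ZFP36L1, which encodes an mRNA decay factor, -0.72 and 0.08.

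Of 20 genes of bone matrix and growth factor signalling known as RUNX2 targets, 6 could be measured. COL1A1, SPP1, IBSP and BGLAP had no peak assigned to them. In 143B 0 of the 6 were lower and 0 higher by 2-fold or more (median -0.54), and in HOS 1 was lower and 3 higher (median 0.76). The matrix protein gene SPARC had 0.05 in 143B and -1.86 in HOS. The receptor genes FGFR1, FGFR2 and FGFR3 had -0.59, -0.49 and -0.17 in 143B and 0.41, 2.47 and 1.89 in HOS. The list has too few measured members to describe RUNX2 targets as a group.

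Of 31 other nuclear receptor genes, 10 could be measured. In 143B 2 were lower and 4 higher by 2-fold or more (median 0.46), and in HOS 0 were lower and 5 higher (median 0.98). The estrogen receptor gene ESR1 had 1.27 in 143B and 3.49 in HOS, and the retinoic acid receptor gene RARB 1.35 and 1.08. RARA had -1.83 and 1.36, and the glucocorticoid receptor gene NR3C1 -0.54 and -0.38. NR2F6, a relative of NR2F2 named here after its values were seen, had 1.06 and -0.11. NR2F1, the closest relative, had no peak assigned to it.

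Of 32 further transcription factors of mesenchyme, 13 could be measured, of which 3 were lower and 0 higher by 2-fold or more in 143B (median -0.48) and 0 lower and 1 higher in HOS (median -0.17). The forkhead gene FOXF2 had -1.76 in 143B and -0.26 in HOS, and the chromatin protein gene HMGA2 -0.97 and -0.54. The neural and mesenchymal factor gene SOX11 had 0.77 and 0.13.

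**Figure D5:**
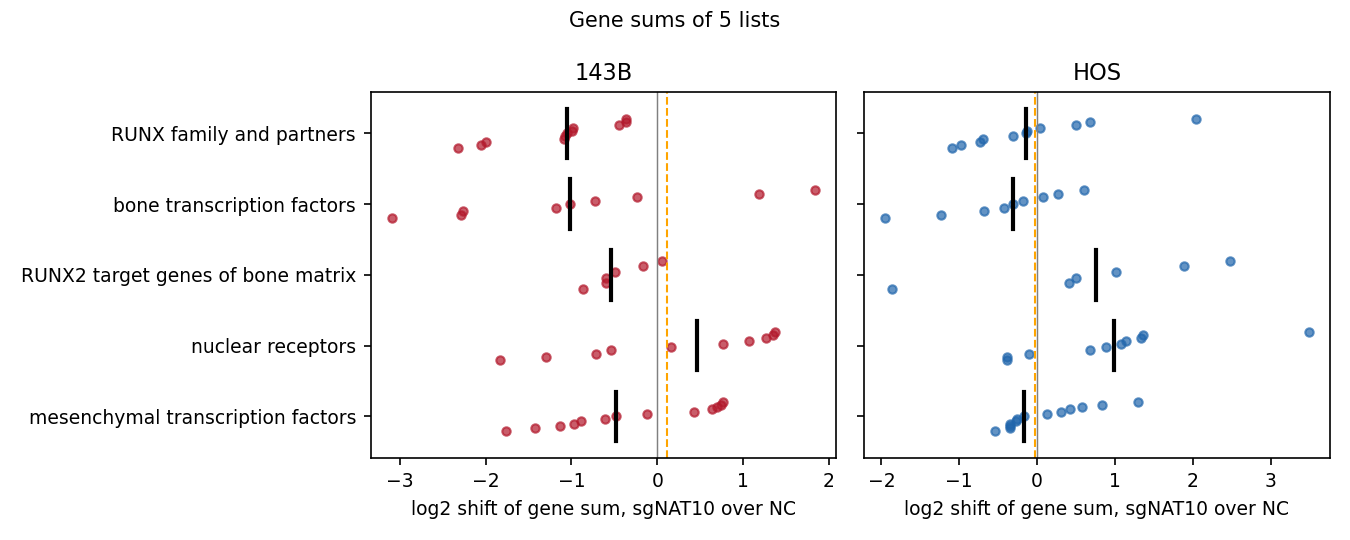
Log2 shift of gene sums, sgNAT10 over NC, in 143B (left) and HOS (right), 1 point per gene averaging at least 20 counts, in 5 lists. Black bars are list medians and the dashed line the median of all 6862 genes. The RUNX relatives and partners have medians of -1.05 (143B) and -0.14 (HOS), and the nuclear receptors 0.46 and 0.98.

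The genes with the most similar patterns were found by the Euclidean distance of log2 CPM, centred on each gene's mean over the 4 libraries, among 4750 other genes averaging at least 50 counts. Nearest to NR2F2 was the TEAD cofactor gene VGLL3, at a distance of 0.30 on the log2 scale, with 97 counts in 143B labelled sgNAT10 and 352 in 143B NC, and 179 in HOS labelled sgNAT10 and 431 in HOS NC. After it came HCFC1, a transcriptional coregulator gene (0.39), TFDP1, the gene of an E2F partner (0.45), and DLG3 (0.56). Nearest to RUNX2 were the neuronal splicing factor gene NOVA2 (0.12), PHF21B (0.12), the matrix protein gene THBS2 (0.13), LOC729732 (0.16) and PPFIA1 (0.16). THBS2 had 249 counts in 143B labelled sgNAT10 and 548 in 143B NC, and 989 in HOS labelled sgNAT10 and 465 in HOS NC. RUNX2 had closer neighbours than NR2F2 in these 4 libraries. Likeness over 4 libraries is a description of those libraries and was not tested.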

How the data were processed

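Per the labels, ac4C immunoprecipitation was done in 143B and HOS cells of 2 genotypes. The deposited values are raw read counts per peak, 1 table per line over the same intervals, and columns name line and genotype only; they were taken as acRIP since both tables' names say RIP count. Per the submitters' processing notes, GRCh38, FastQC, STAR, SAMtools and deepTools were used; roles, versions, peak caller and strand setting are not given in the sources used here.

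Peaks were matched to RefSeq GRCh38.p14 gene spans. A gene sum holds peaks overlapping 1 protein-coding gene, or else 1 gene. Of all peaks 19102 were assigned to a gene in this way. A listed gene or marker without a peak had none assigned, and an unassigned peak may still overlap it. Counts were scaled with TMM over the 24467 peaks passing filterByExpr (minimum count 10, minimum total 15). Cell line was tested with the edgeR 4.0.16 quasi-likelihood test, with DESeq2 1.42.0 and limma 3.58.1 as alternatives; the script was tested on simulated data. Promoter windows are RefSeq's.

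Genes named from each list were the 2 lowest and 2 highest by mean shift among members averaging at least 50 counts; the minimum of 20 for gene sums was set after the tables were seen. Some genes that these rules pick are not reported here. Members and lists were chosen with earlier results of these data known.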

Additional observations from a re-analysis of the deposited data

Results flagged for a closer look

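RUNX2 was lower in 143B and higher in HOS in the library labelled sgNAT10, which put it aside for a second look. The shift in 143B minus that in HOS was -1.67 on the log2 scale for peak 1, -3.44 for peak 2 and -2.59 for the summed peaks. With 1 library per line and genotype this difference was not tested, and for peak 1 the counting interval of the HOS shift holds 0. In HOS the filtered peaks had a median shift of 0.31, with 63.3% of them above 0, and 50.7% of them lay below RUNX2 peak 1. The internal peaks of protein-coding genes had a median of -0.02 in HOS. The 143B library labelled sgNAT10 enters each of these values, was low over internal peaks in general (median shift -0.89) and did not show fewer counts than its control (130 against 65) at the NAT10 peak, which lies near the far end of that gene and does not check the edit itself. The part of these facts in the result was not tested.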

How the results depend on the processing

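Against library totals the summed shift was -2.16 in 143B and -1.11 in HOS for NR2F2, and 1.37 in HOS for RUNX2, and 1 of the 4 peaks in place of 2 was lower by 2-fold or more in HOS, NR2F2 peak 2 falling short. In a count added after seeing the data, 0 peaks in place of 1 were higher by 2-fold or more in HOS with DESeq2-type size factors, upper quartile factors, TMM without the rRNA block and a prior count of 5. For the cell line test, DESeq2 called 15 peaks, edgeR with library totals 2 and edgeR without the count filter 1, against 0. DESeq2 without the count filter, which changes tool and filter together and was added after seeing the data, called 20. The cause was not tested. Directions of the summed shifts of both genes were kept under all scalings run, a prior count of 5, midpoints in place of overlaps and spans extended by 500 bp. TMM over all peaks, an alternative chosen after seeing the data, gave no other direction either. Relative to TMM, the other scalings added -0.25 to 0.35 to every 143B shift and -0.28 to 0.59 to every HOS shift, so the HOS shift of RUNX2 peak 1 ran from 0.05 to 0.90. Counts of 22 to 235 per peak limit the precision. The cell line test compared the lines within genotype, and without that genotype block edgeR called 0 peaks too. By replicate number, no paired analysis was possible because each line and genotype has 1 library and the labels give no such numbers.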

Other observations

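Peaks around the genes were sparse. Within 250 kb of the NR2F2 span, 5 peaks summed to 80 counts in 143B labelled sgNAT10 and 28 in 143B NC, and to 143 in HOS labelled sgNAT10 and 38 in HOS NC. One of them lay in the antisense gene NR2F2-AS1 (chr15:96280725-96280844), with 20 counts in 143B labelled sgNAT10 and 8 in 143B NC, and 13 in HOS labelled sgNAT10 and 9 in HOS NC. A peak outside annotated genes (chr15:96551835-96552022) had 70 counts in HOS labelled sgNAT10, 0 in HOS NC, 4 in 143B labelled sgNAT10 and 5 in 143B NC.

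Within 250 kb of the RUNX2 span, 7 peaks summed to 189 counts in 143B labelled sgNAT10 and 94 in 143B NC, and to 100 in HOS labelled sgNAT10 and 67 in HOS NC. Of them 2 lay in SUPT3H, the neighbouring gene of a transcription coactivator subunit, with shifts of -0.13 and -0.47 in 143B and -0.20 and -0.03 in HOS. The peak in RUNX2-AS1 (chr6:45567645-45567753) had 16 counts in 143B labelled sgNAT10 and 2 in 143B NC, and 0 in HOS labelled sgNAT10 and 1 in HOS NC. None of these 12 surrounding peaks had a mean count above 26.3.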
